A study of Mus musculus with 37 samples.

Results

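Regulatory T cells are the CD4 T cells that restrain other lymphocytes, and the genes described here are 10 that mark them or draw them into tissue. They are the transcription factors Foxp3 and Ikzf2, the surface receptors Il2ra, Tnfrsf18 and Cd4, the chemokine receptors Ccr8 and Ccr4, the Ccr4 ligands Ccl22 and Ccl17, and the cytokine Il10. Each was taken by its symbol from a table of 39017 genes and all 10 were found. RNA was sequenced in bulk from 37 tumours, taken 3 weeks after pancreatic tumour cell clones had been implanted under the skin of untreated C57BL/6 mice. By the labelled T cell phenotype there are 15 high tumours (7 clones), 4 intermediate tumours (2 clones) and 15 low tumours (7 clones), and 3 tumours carry no phenotype. The high clones are bulk_2838c3, bulk_6421c2, bulk_6499c4, bulk_6555c3, bulk_6556c4, bulk_6620c1 and bulk_7160c2. The intermediate clones are bulk_6422c5 and bulk_7160c5, and the low clones are bulk_2669c4, bulk_6419c1, bulk_6419c5, bulk_6422c1, bulk_6499c3, bulk_6556c3 and bulk_6694c2. Tumours of a clone are repeats of 1 implanted line, so their counts were added up and each clone is 1 replicate. The sources used here do not give how the phenotype was measured, what the number before the letter c stands for, or the age of the mice. Since these are T cell genes for the most part, a difference between the phenotypes also checks the label and is no independent evidence about it.

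Foxp3 is the lineage factor of regulatory T cells, and these cells carry much of the IL-2 receptor alpha chain CD25, the product of Il2ra. In tumours they often carry the chemokine receptor CCR8 as well, and CCR4 lets them follow CCL22 and CCL17, which dendritic cells and macrophages release. CCR8 itself binds CCL1 and, in mice, CCL8. Most of these genes are also used by other cells, and in bulk RNA fewer cells of a type and less RNA per cell cannot be told apart.

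The 34 labelled libraries held 7.39 to 102.33 M counts (median 31.8 M), and Krt19, a keratin gene of ductal epithelium, was present in all 37, at 124 to 2289 CPM (counts scaled to the same library total, per M). In 17 of the 34, liver and heart genes were abundant, with Myh6, Myh7, Cps1 and Serpina3k together at 258 to 5922 CPM against at most 0.539 CPM in the other 17. All 16 labelled tumours numbered 1 were in the first class, with 1 of the 18 tumours of a later number. The second class is without these transcripts by the named genes only. Alb, a liver gene outside the rule, was still at 124 CPM in bulk_6419c1_no2 of that class. Among the libraries with these transcripts, bulk_2838c3_no1, bulk_6419c5_no1, bulk_6499c4_no1 and bulk_6555c3_no1 were nearly alike although they belong to 4 clones, with a chi-squared value of 3.25 to 8.27 per gene between them and 48.5 for the closest pair from 1 clone. The next pair, bulk_6556c4_no1 and bulk_6694c2_no1, of different clones too, stood at 8.69, so no gap sets the 4 apart from it. These differences exceed sampling noise, so each library was kept as its own sample. The comparisons of phenotypes and of library classes, the ratios and the relations between genes are also given without them. The library bulk_6499c3_no1 was the shallowest, and bulk_7160c2_no1 and bulk_7160c5_no1, at 101.42 and 102.33 M, were the deepest of the labelled libraries.

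By position in GENCODE M21 (GRCm38), Ccl22 (ENSMUSG00000031779, chromosome 8, 94745590 to 94751699) and Ccl17 (ENSMUSG00000031780, chromosome 8, 94810453 to 94812036) are neighbours on the plus strand. Ccr8 (ENSMUSG00000042262, chromosome 9, 120092114 to 120094906) and Ccr4 (ENSMUSG00000047898, chromosome 9, 114490316 to 114504916) share a chromosome, and Il2ra (ENSMUSG00000026770) lies on chromosome 2, 11642807 to 11693193. Foxp3 (ENSMUSG00000039521, chromosome X, 7573644 to 7595245) has 4577 exon bases. Its exon overlaps with other genes, added up gene by gene, came to 2082 bases, and a base shared with several genes counts for each. Most of these genes lie on the opposite strand, such as Ppp1r3f and Ccdc22. Whether the counting used strand is not given, so reads of Foxp3 and these partners cannot be told apart where they overlap. Across the 37 tumours Ppp1r3f was at 3.33 to 12.7 CPM, with 5.86 to 7.15 CPM in the 4 tumours of bulk_7160, inside the range of the others. Tnfrsf18 (ENSMUSG00000041954, chromosome 4, 156026164 to 156028895) shares 414 exon bases with an opposite predicted gene, and Ikzf2 (ENSMUSG00000025997, chromosome 1, 69531214 to 69687245) shares 144. Il10 (ENSMUSG00000016529) lies on chromosome 1, 131019845 to 131024974, and Cd4 (ENSMUSG00000023274) on chromosome 6, 124864692 to 124888221.

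The promoters of 7 of the 10 members were found in RefSeq (build GRCm38.p6), in windows of 250 bases before to 50 bases after the start, and 5 are shown, those of the genes whose relations over clones are given further on. Capitals mark matches on either strand to the NF-kappaB site by its name, to TTCNNNGAA, the STAT5 form of the sites through which IL-2 signals, to TTCNNNNGAA, the STAT6 form, to the AP-1 site TGANTCA, or to the forkhead letters TGTTTAC.
Foxp3, chrX:7580233-7580532, plus strand: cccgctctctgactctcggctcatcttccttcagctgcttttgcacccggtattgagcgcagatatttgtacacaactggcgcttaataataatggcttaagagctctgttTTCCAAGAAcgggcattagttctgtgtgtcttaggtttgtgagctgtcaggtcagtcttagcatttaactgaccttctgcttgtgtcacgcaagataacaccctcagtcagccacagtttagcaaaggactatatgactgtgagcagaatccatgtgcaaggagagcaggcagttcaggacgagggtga
Ccr8, chr9:120091883-120092182, plus strand: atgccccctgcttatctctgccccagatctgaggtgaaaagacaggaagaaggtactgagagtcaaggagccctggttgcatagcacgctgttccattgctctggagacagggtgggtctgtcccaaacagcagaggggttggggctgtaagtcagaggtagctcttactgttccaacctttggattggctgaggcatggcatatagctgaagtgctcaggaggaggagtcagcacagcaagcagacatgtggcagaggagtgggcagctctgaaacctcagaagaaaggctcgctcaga
Il2ra, chr2:11642542-11642841, plus strand: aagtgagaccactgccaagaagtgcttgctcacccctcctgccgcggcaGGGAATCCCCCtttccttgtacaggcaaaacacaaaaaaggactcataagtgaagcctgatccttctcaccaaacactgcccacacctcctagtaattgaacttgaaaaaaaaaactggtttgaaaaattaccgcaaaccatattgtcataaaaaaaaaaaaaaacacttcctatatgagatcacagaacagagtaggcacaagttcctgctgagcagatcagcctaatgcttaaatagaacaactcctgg
Ccl22, chr8:94745434-94745733, plus strand: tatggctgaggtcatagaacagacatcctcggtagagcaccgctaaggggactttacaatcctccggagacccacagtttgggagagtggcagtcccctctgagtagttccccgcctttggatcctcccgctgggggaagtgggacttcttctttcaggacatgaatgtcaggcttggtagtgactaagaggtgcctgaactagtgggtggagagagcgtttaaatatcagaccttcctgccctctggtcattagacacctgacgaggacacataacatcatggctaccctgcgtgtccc
Ccl17, chr8:94810203-94810502, plus strand: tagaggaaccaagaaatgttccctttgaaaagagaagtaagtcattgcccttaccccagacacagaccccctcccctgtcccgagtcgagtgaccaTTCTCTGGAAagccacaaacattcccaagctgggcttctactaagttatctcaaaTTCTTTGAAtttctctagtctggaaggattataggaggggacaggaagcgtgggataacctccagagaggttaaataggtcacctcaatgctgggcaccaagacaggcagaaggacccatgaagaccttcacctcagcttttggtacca
The Foxp3 window, the downstream of 2 in the table, holds 1 STAT5 form, and the Il2ra window 1 run of overlapping NF-kappaB matches on both strands. Ccl17 has 1 STAT6 and 1 STAT5 form, and these letters were not found in the windows of Ccl22 and Ccr8. Over 32851 promoters of 300 bases, 8.3% hold the STAT5 form, 6.95% the STAT6 form, 4.51% the NF-kappaB site, 7.81% the AP-1 site and 3.65% the forkhead letters. Of the 7 members, 3 hold the STAT5 form (Foxp3, Ccl17 and Tnfrsf18), 1 the STAT6 form, 1 the NF-kappaB site, 1 the AP-1 site (Ccr4) and 0 the forkhead letters. A match is a description of the letters and says nothing of binding.

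Both bulk_7160 clones held the highest levels of most of these genes. Foxp3 stood at 10.1 and 2.45 CPM in the tumours 1 and 2 of bulk_7160c2 and at 13.7 and 8.13 CPM in those of bulk_7160c5. In the other 30 labelled tumours it ran from 0.470 to 3.38 CPM with a median of 1.05 CPM. For Foxp3, 3 of the 4 exceeded every other labelled tumour, and bulk_7160c2_no2 was reached by tumours of 2 other clones, bulk_2838c3 and bulk_6421c2. Summed by clone, Foxp3 was 8.33 CPM in bulk_7160c2 and 12.2 CPM in bulk_7160c5, against 0.710 to 1.77 CPM in the other 14 clones. Since bulk_7160 was set apart with its levels known, these differences are a description with no test.

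**Figure D1:**
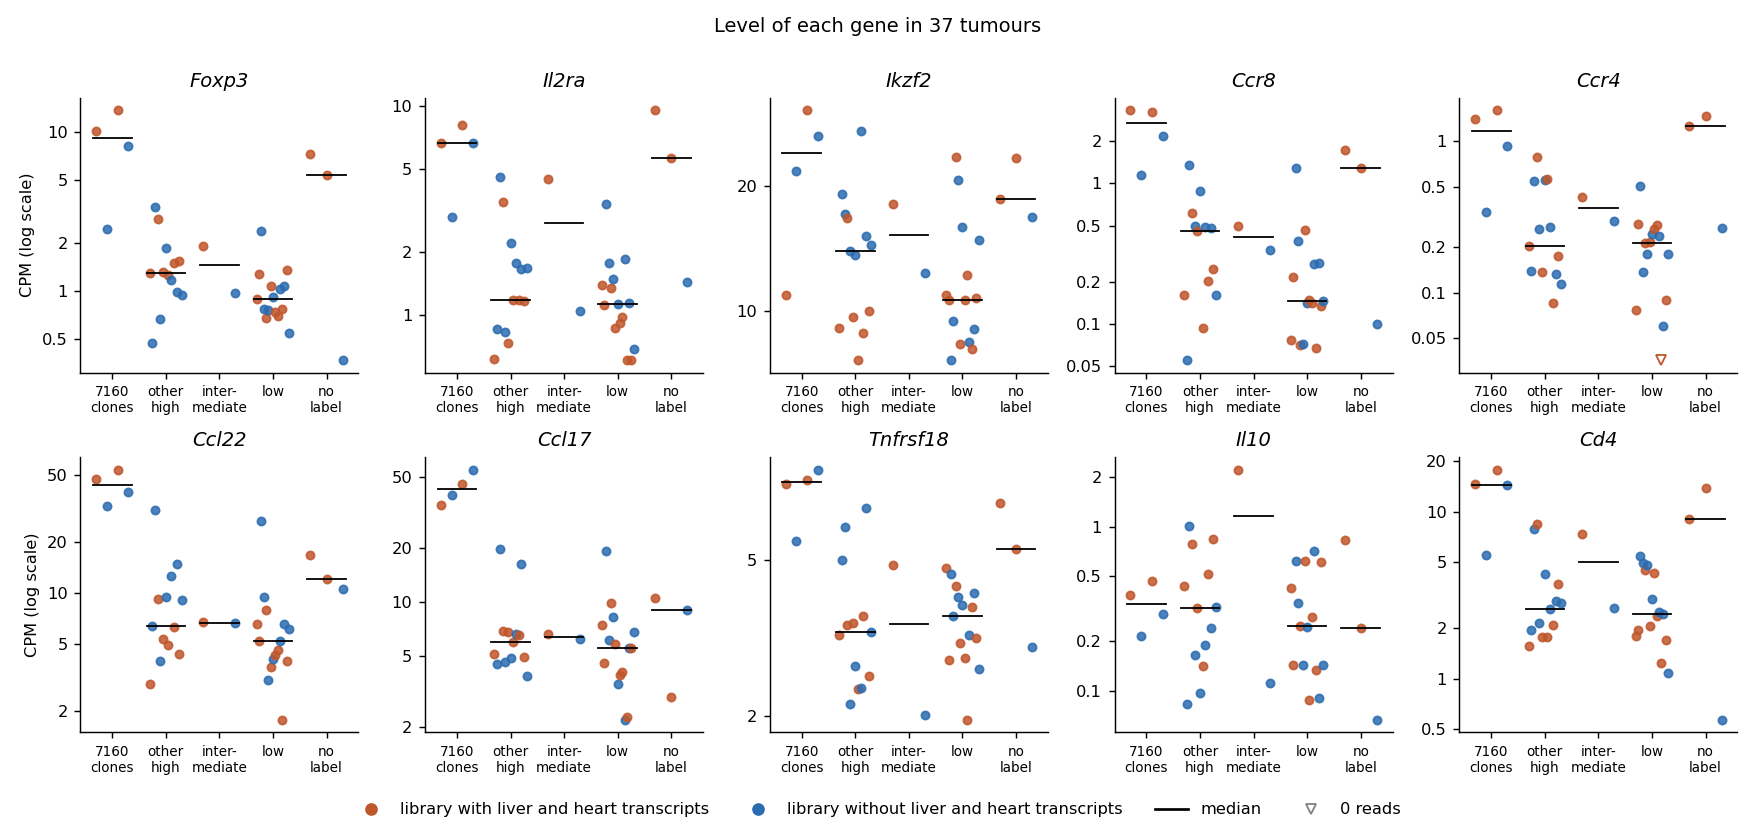
Level of each of the 10 genes in CPM, on a log scale, in the 4 tumours of the bulk_7160 clones, the other 13 high tumours, the 2 tumours of intermediate clone bulk_6422c5, the 15 low tumours and the 3 tumours with no phenotype. Colours give the library class, black bars the medians and the open triangle a tumour with 0 reads. For Ccl22 and Ccl17 the 4 tumours of the bulk_7160 clones lie above all 30 other labelled tumours, narrowly so for Ccl22.

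Il2ra was at 5.79 CPM in bulk_7160c2 and 7.73 CPM in bulk_7160c5, above a range of 0.625 to 3.31 CPM in the other 14 clones. Tnfrsf18, which encodes the co-stimulatory receptor GITR, was at 7.37 and 8.21 CPM in these clones, against 2.32 to 5.25 CPM. Cd4, the co-receptor of helper and regulatory T cells that some dendritic cells also make, was at 12.5 and 16.9 CPM, against 1.44 to 5.79 CPM. By tumour, 3 of the 4 exceeded the other 30 labelled tumours for each of these 3 genes, and bulk_7160c2_no2 did not. That tumour was at 2.95 CPM of Il2ra, 5.61 CPM of Tnfrsf18 and 5.49 CPM of Cd4. The highest of the other 30 were at 4.60, 6.79 and 8.40 CPM. Summed by clone, both bulk_7160 clones lay above all others for these 3 genes. Ikzf2, which encodes Helios, did not, with 13.7 CPM in bulk_7160c2 and 29.4 CPM in bulk_7160c5, against 8.55 to 21.9 CPM. The low clone bulk_6419c1 was the highest of the other 14 for Ikzf2, and its tumours, at 23.5 and 20.6 CPM, exceeded bulk_7160c2_no1 at 10.9 CPM. For Il10, an inhibitory cytokine, the bulk_7160 clones lay inside the range of the others at 0.345 and 0.416 CPM, and the highest clone was bulk_6422c5 at 1.47 CPM, with 2.21 CPM in its tumour 1 and 0.112 CPM in its tumour 2.

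Among the chemokine receptors, Ccr8 was at 3.31 and 1.15 CPM in the tumours of bulk_7160c2 and at 3.20 and 2.18 CPM in those of bulk_7160c5. The other 30 labelled tumours had 0.0553 to 1.35 CPM with a median of 0.230 CPM, and bulk_2838c3_no3 and bulk_2669c4_no3 were the tumours that reached the lowest of the bulk_7160 values. Ccr4 was at 1.40 and 0.341 CPM in bulk_7160c2 and at 1.60 and 0.931 CPM in bulk_7160c5, against 0 to 0.784 CPM with a median of 0.214 CPM in the other 30. For both receptors, 3 of the 4 tumours of the bulk_7160 clones exceeded all others. Counts were small in most tumours, with under 10 reads for Ccr8 in 20 of the 37 tumours and for Ccr4 in 24. The low tumour bulk_6556c3_no1 had 0 reads of Ccr4, which allows up to 0.101 CPM (3 counts, counting error only).

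For both ligands the 4 bulk_7160 tumours lay above the other 30 labelled tumours, by a narrow gap for Ccl22 (32.7 against 31.3 CPM). The share of all genes that do so by tumour was not counted. Ccl22 was at 47.2 and 32.7 CPM in bulk_7160c2 and at 53.9 and 39.8 CPM in bulk_7160c5, against 1.78 to 31.3 CPM with a median of 6.21 CPM in the other 30 tumours. Ccl17 was at 34.6 and 39.5 CPM in bulk_7160c2 and at 45.5 and 54.6 CPM in bulk_7160c5, against 2.21 to 19.6 CPM with a median of 5.88 CPM. The tumours nearest to them were bulk_2838c3_no3, a high tumour with 31.3 CPM of Ccl22 and 19.6 CPM of Ccl17, and bulk_2669c4_no3, a low tumour with 26.8 and 19.3 CPM. These 2 tumours also had the highest Ccr8 of the labelled tumours outside bulk_7160, at 1.35 and 1.28 CPM. Their sister tumours were much lower, with Ccl22 at 2.89 and 6.39 CPM in bulk_2838c3_no1 and bulk_2838c3_no2 and at 6.55, 5.22 and 9.46 CPM in the other tumours of bulk_2669c4.

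Divided by exon length, the ligand Ccl17 led in the tumours of bulk_7160, with a median of 82.7 CPM per kb, followed by Ccl22 at 18.7, Tnfrsf18 at 5.22, Cd4 at 3.60, Ccr8 at 2.29, Ikzf2 at 2.07 and Foxp3 at 2.0 CPM per kb. Il2ra, at 1.17, Ccr4, at 0.377, and Il10, at 0.258 CPM per kb, closed the order. Over all 37 tumours Ccl17 and Ccl22 again came first, at medians of 12.1 and 2.82 CPM per kb, and Ccr4 last at 0.0854 CPM per kb. The order of clones was mostly unresolved: for Foxp3, 14 of 15 pairs of neighbours in the order of clone levels had overlapping tumours. The count was 12 of 15 for Ccr8 and Ccr4, and 13 of 15 for Ccl22 and Ccl17.

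Counted over the members, 8 of 10 put both bulk_7160 clones above the other 14, and 10.7% of the 20348 genes tested did the same. The summed level of 17 T cell genes was 104 and 119 CPM in bulk_7160c2 and bulk_7160c5, against 23.8 to 59.0 CPM in the other 14, and without Tcf7, the most abundant of them, 62.7 and 84.4 CPM against 10.1 to 39.2 CPM. A list of 12 macrophage and monocyte genes summed to 3663 and 5223 CPM, against 989 to 2585 CPM, and 8 genes of type 2 conventional dendritic cells to 347 and 480 CPM, against 105 to 209 CPM. The pan-leukocyte gene Ptprc was at 54.2 CPM in bulk_7160c2 and 150 CPM in bulk_7160c5, against 33.4 to 139 CPM in the others. The liver and heart list was low in both, at 489 and 425 CPM against 531 to 6665 CPM. The part of these contents and of depth in the bulk_7160 levels was not tested. The libraries bulk_7160c2_no2 and bulk_7160c5_no2, both of the class without the liver and heart transcripts and with 32.3 and 40.3 M counts, had Foxp3 at 2.45 and 8.13 CPM.

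The study set out to compare T cell high with T cell low tumours. All 10 members averaged higher in high clones, with Ccr8, Foxp3 and Ccl22 at the top, and none passed the test. The Foxp3 mean was 2.41 ± 2.62 CPM over high clones, against 0.943 ± 0.186 CPM over low ones (SD, n = 7 clones each), and the fitted log2 difference was 1.35 (SE 0.49, edgeR adjusted p = 0.659). The 7 high clones lay between 1.18 and 8.33 CPM, the 7 low clones between 0.710 and 1.24 CPM, and 4 of the high clones lay above every low one. Ccr8 averaged 0.783 ± 0.907 CPM over high clones, against 0.221 ± 0.133 CPM over low ones, a difference of 1.80 (SE 0.60, edgeR adjusted p = 0.659), again with 4 high clones above every low one. Ccl22 averaged 14.2 ± 13.4 CPM over high clones, against 5.59 ± 2.63 CPM over low ones, a difference of 1.34 (SE 0.48, edgeR adjusted p = 0.659). The highest of the high clones was bulk_7160c2 for all 3 genes.

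For Ccr4 the log2 difference was 1.18 (SE 0.52), for Ccl17 1.04 (SE 0.50), for Il2ra 0.91 (SE 0.36) and for Cd4 0.63 (SE 0.40). For Ikzf2, Tnfrsf18 and Il10 it was 0.26 (SE 0.21), 0.24 (SE 0.26) and 0.17 (SE 0.43). The edgeR test called 0.0% of the 20348 genes, with a smallest adjusted p = 0.659, and DESeq2 called 27 genes, 0.141%, none of them a member. At an unadjusted p under 0.05, 5 members lay higher, Foxp3, Il2ra, Ccr8, Ccr4 and Ccl22, where 4.31% of all genes did (878 genes higher and 1516 in either direction). The median difference was 0.98 over the members and 0 over all genes. DESeq2 gave a difference of 0.55 for Foxp3, 1.81 for Ccr8 and 1.34 for Ccl22. For Foxp3 this was near the edgeR difference without bulk_7160c2, 0.57, and not that with all clones. The part of the bulk_7160c2 count and of the default DESeq2 handling of outlier counts in this value was not tested. A limma fit on clone means with equal weight for each tumour, chosen after seeing the data, gave 0.84 for Foxp3, 1.15 for Ccr8, 0.98 for Ccl22 and 0.65 for Ccr4, each with a limma adjusted p = 0.726.

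**Figure D2:**
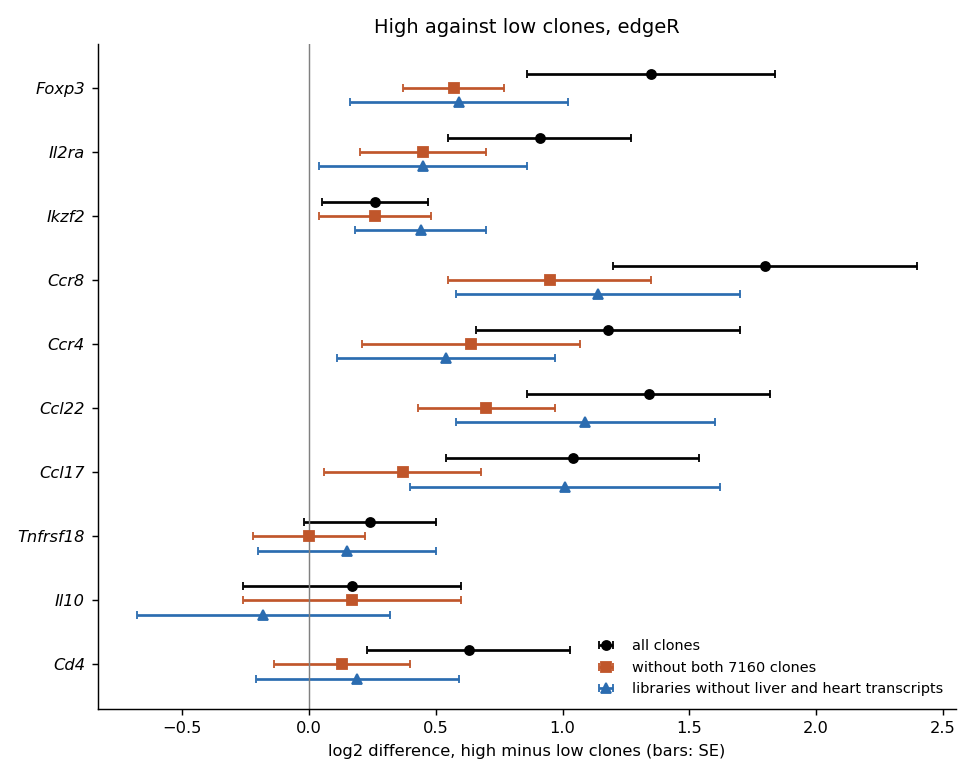
Difference between high and low clones on the log2 scale for each gene, with bars of 1 standard error, from edgeR on clone sums. Black circles use all clones, orange squares leave out both bulk_7160 clones and blue triangles use libraries of the class without liver and heart transcripts. The differences of Foxp3, Ccr8, Ccl22 and Ccl17 were 0.57, 0.95, 0.70 and 0.37 without bulk_7160, against 1.35, 1.80, 1.34 and 1.04 with all clones.

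Without both bulk_7160 clones the 6 remaining high clones averaged 1.42 ± 0.257 CPM for Foxp3 (SD, n = 6), with low clones at 0.943 ± 0.186 CPM (n = 7), and the log2 difference was 0.57 (SE 0.20, edgeR adjusted p = 0.727). The difference was 0.95 (SE 0.40) for Ccr8 and 0.70 (SE 0.27) for Ccl22, 0.64 for Ccr4, 0.45 for Il2ra, 0.37 for Ccl17, 0.13 for Cd4 and 0.00 for Tnfrsf18. Foxp3, Ccr8 and Ccl22 kept an unadjusted p under 0.05, and the median over the members was 0.41. Among libraries of the class without the liver and heart transcripts the difference was 1.09 (SE 0.51) for Ccl22 and 1.01 (SE 0.61) for Ccl17. Foxp3 was at 0.59 (SE 0.43), Il2ra at 0.45, Ccr8 at 1.14 (SE 0.56), Ccr4 at 0.54 and Cd4 at 0.19. Il10 turned to -0.18 (SE 0.50). In those libraries Ccl22 was the 1 member with an unadjusted edgeR p under 0.05, at 0.0478, with Ccr8 at 0.0584 and Foxp3 at 0.19. Both restrictions together left Foxp3 at 0.42, Ccr8 at 0.94 and Ccl22 at 0.76, none with an unadjusted p under 0.05. Leaving out the 4 nearly alike libraries gave 1.43 for Foxp3, 2.11 for Ccr8 and 1.5 for Ccl22, and edgeR called 0 genes. The edgeR test again called 0.0% of genes without the bulk_7160 clones and 0.0% in the libraries without the transcripts.

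Intermediate clones were compared with the same low clones, so both comparisons share them, and the 2 intermediate clones were far apart. Foxp3 was at 12.2 CPM in bulk_7160c5 and 1.64 CPM in bulk_6422c5, against 0.710 to 1.24 CPM in low clones, and Ccl22 at 50.0 and 7.07 CPM, against 3.85 to 11.4 CPM. The log2 difference was 2.87 (SE 0.64) for Foxp3, 2.90 (SE 0.77) for Ccr8, 2.35 (SE 0.63) for Ccl22, 2.31 (SE 0.67) for Ccl17, 2.29 (SE 0.67) for Ccr4, 2.21 (SE 0.48) for Il2ra and 1.94 (SE 0.53) for Cd4, each with an edgeR adjusted p = 0.132. It was 0.95 for Ikzf2, 0.82 for Tnfrsf18 and 1.52 for Il10. All 10 members had an unadjusted p under 0.05 and lay higher, where 9.56% of all genes did, and edgeR called 0.0% of 20348 genes. At 4.66%, 929 genes, DESeq2 called more, among them the 6 members Foxp3, Il2ra, Ccr8, Ccl22, Ccl17 and Cd4. The same DESeq2 fit put Foxp3 at 0.55 between high and low clones, against 1.35 with edgeR, so its call for Foxp3 carries the same limit. The edgeR count itself was 567 without bulk_7160c2, a high clone that is in neither group of this comparison, 480 without bulk_6422c5 and 9 without low clone bulk_6499c3, with 7, 6 and 0 members called. Without both bulk_7160 clones, bulk_6422c5 alone differed from low clones by 0.75 for Foxp3, 1.42 for Il2ra, 0.29 for Ccl22 and 0.25 for Ccl17, and by 2.13 for Il10. With 1 clone left, its spread was assumed to be that of the other groups. Without the 4 nearly alike libraries edgeR called 0 genes, and the difference was 2.88 for Foxp3, 3.05 for Ccr8 and 2.33 for Ccl22.

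None of the members passed the test between library classes. Within clones, 8525 of 16623 genes, 51.3%, were called between libraries with and without liver and heart transcripts, and 0 of the 9 members tested, Ccr4 having been filtered out for low counts. Ccl22 was lower by 0.64 on the log2 scale in libraries with the transcripts (SE 0.30, edgeR adjusted p = 0.0823), with a lower level in 10 of 15 clones. Without both bulk_7160 clones it fell by 0.91 and passed (edgeR adjusted p = 0.0263), as it did with DESeq2 over all clones (-0.64, adjusted p = 0.0342). Il10 was higher by 0.79 (SE 0.37, edgeR adjusted p = 0.0818) and in 11 of 15 clones, and passed where tumours numbered 1 were compared with later ones (0.94, edgeR adjusted p = 0.0396). Foxp3 differed by 0.33 (SE 0.28), Ccr8 by -0.49 (SE 0.42), Ccl17 by -0.26 (SE 0.23) and Ikzf2 by -0.32 (SE 0.15). In both bulk_7160 clones Foxp3, Ccr8 and Ccl22 were higher in the library with the transcripts, whereas Ccl17 was lower in both. Without the 4 nearly alike libraries edgeR called 6945 genes and 0 of the 9 members, with Ccl22 at -0.50 (adjusted p = 0.273), Il10 at 0.83 (adjusted p = 0.156), Foxp3 at 0.46 and Ccr8 at -0.38. Class and tumour number nearly coincide, so the class cannot be told apart from the tumour number.

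**Figure D3:**
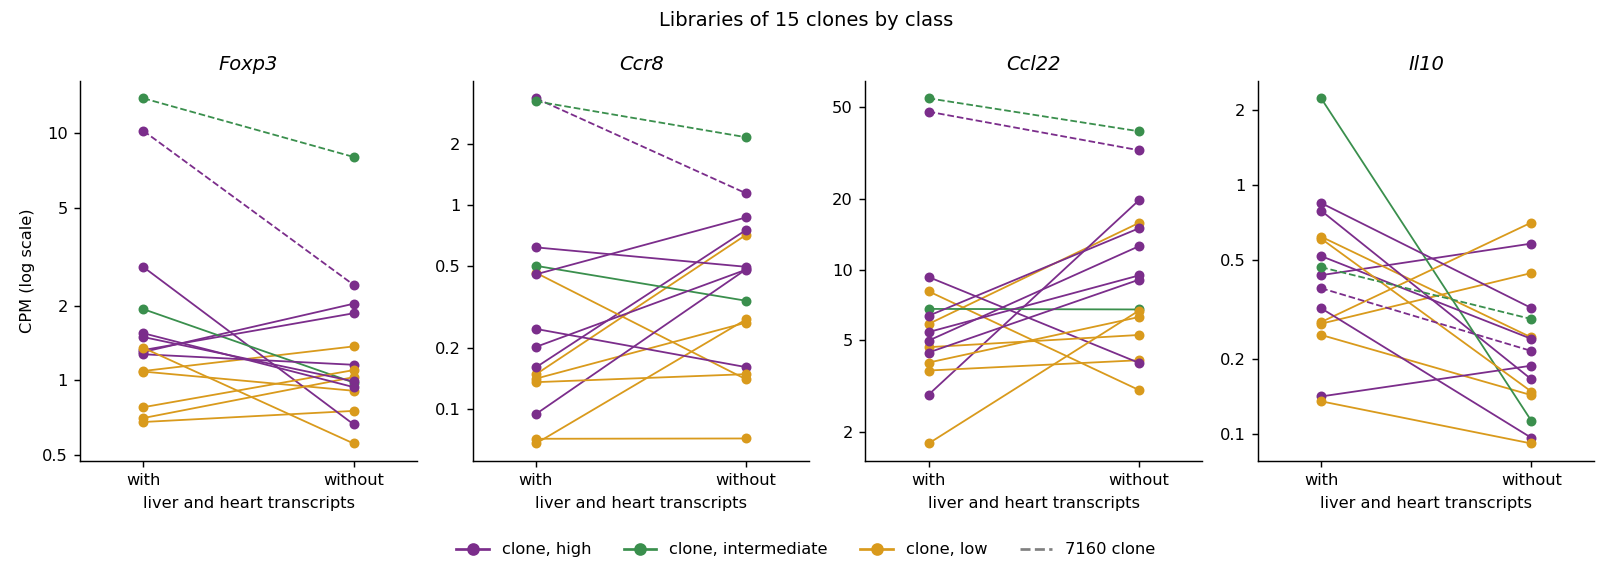
Levels of Foxp3, Ccr8, Ccl22 and Il10, in CPM on a log scale, in the libraries with and without liver and heart transcripts of the 15 clones that have both. Each line is a clone coloured by phenotype, and dashed lines are the bulk_7160 clones. Ccl22 is lower with the transcripts in 10 of 15 clones, and Il10 is higher in 11.

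Ratios set the members against each other and against T cell genes. Foxp3 relative to the summed T cell receptor complex genes Cd3d, Cd3e and Cd3g was -1.16 ± 0.62 in high and -0.80 ± 0.54 in low clones on the log2 scale (SD, n = 7 each), a difference of -0.36 (two-sided exact permutation p = 0.275). Among labelled clones the lowest value was that of high clone bulk_6421c2, at -2.30, and the highest that of low clone bulk_6694c2, at 0.17. The bulk_7160 clones stood at -0.46 and -0.36, inside the range of the low clones, which was -1.58 to 0.17. Of the labelled clones only bulk_6694c2 lay above them, and the next below were low clone bulk_6422c1 at -0.61 and high clone bulk_6620c1 at -0.66. In bulk_6694c2_no2 Cd3d, Cd3e and Cd3g had 3, 5 and 10 reads. In libraries with the transcripts the bulk_7160 clones stood at -0.32 and -0.17, and in libraries without the transcripts at -1.54 and -0.96. Foxp3 relative to Cd4 was -1.05 ± 0.32 in high and -1.47 ± 0.75 in low clones and differed by 0.43 (exact permutation p = 0.205), Ccr8 relative to Foxp3 by 0.24 (exact permutation p = 0.210) and Ccl22 relative to Ccl17 by 0.32 (exact permutation p = 0.196). All 4 ratios had an adjusted exact permutation p = 0.275, and the smallest p that 7 against 7 clones allow is 0.000583. The sign for Ccr8 relative to Foxp3 turned with a larger prior, to -0.08, and in libraries with the transcripts, to -0.12. Without the 4 nearly alike libraries the differences were -0.40, 0.39, 0.44 and 0.39 in the same order. That of Ccr8 relative to Foxp3 then had an exact permutation p = 0.0443 and an adjusted p = 0.177, and the other 3 had an adjusted exact permutation p = 0.247.

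**Figure D4:**
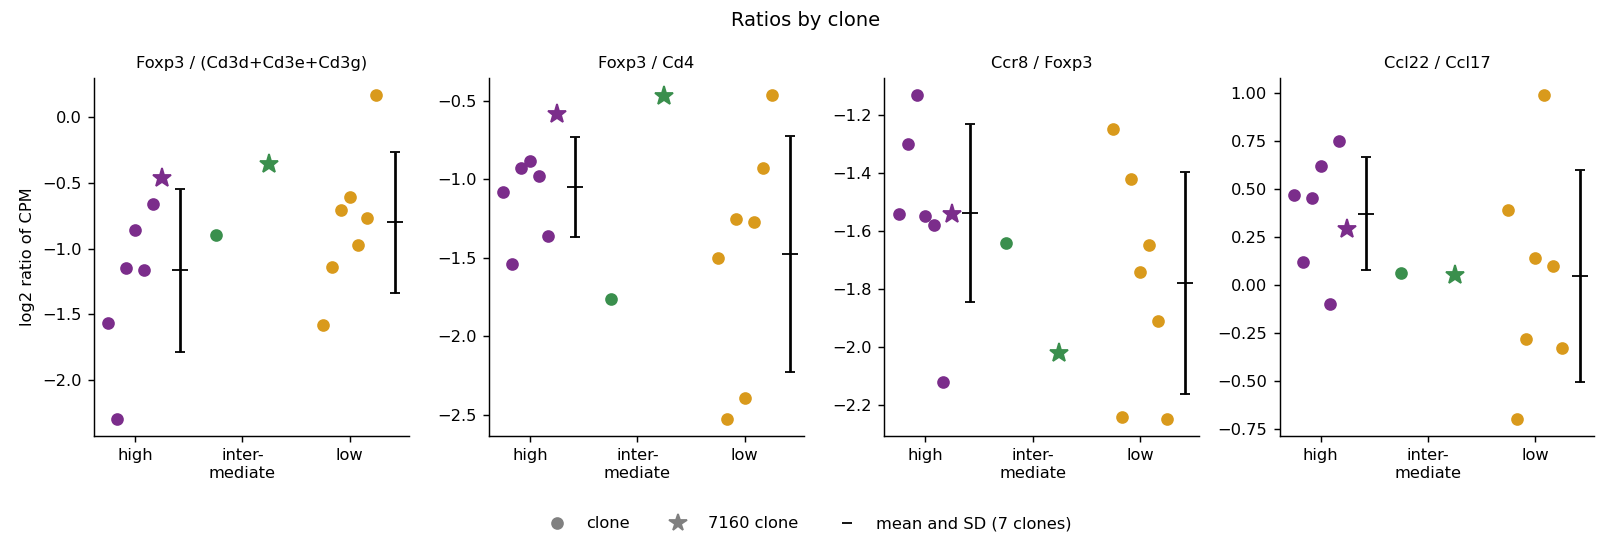
Ratios of CPM on the log2 scale for each clone, with stars for the bulk_7160 clones and the mean and SD of the 7 high and 7 low clones beside the points. High and low clones overlap in all 4 ratios, and bulk_7160c2 and bulk_7160c5 lie at -0.46 and -0.36 for Foxp3 over the T cell receptor genes.

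Across the 14 clones outside bulk_7160, Foxp3 and Ccr8 varied together. On the log scale used for every r here, the Pearson r was 0.90 (permutation p = 5e-05, adjusted 0.00025). The Spearman rho was 0.90 (permutation p = 3e-05, adjusted 0.00015). With the clones bulk_6419c1 and bulk_6422c1, the farthest from the median of Foxp3 on that scale, left out, r was 0.85. For Foxp3 and Il2ra r was 0.67 and rho 0.75 (permutation p = 0.00851 and 0.00242), for Foxp3 and Ccl22 r was 0.66 and rho 0.74 (permutation p = 0.0109 and 0.00356), and for Ccl22 and Ccl17 both were 0.70 (permutation p = 0.00542 and 0.00647). For Ccl22 and Ccr8 r was 0.60 and rho 0.64 (permutation p = 0.0268 and 0.0176). All 5 relations passed after adjustment over the 5, with the largest adjusted permutation p = 0.0268. Without the 2 farthest clones r was 0.73 for Foxp3 and Il2ra, 0.63 for Foxp3 and Ccl22, 0.58 for Ccl22 and Ccl17 and 0.49 for Ccl22 and Ccr8. In the 13 clones with a library of the class without liver and heart transcripts r was 0.73, 0.86, 0.69, 0.60 and 0.71 in the same order. The rho of 0.55 for Ccl22 and Ccl17 then had an adjusted permutation p = 0.0506. Without the 4 nearly alike libraries, over 14 clones, r was 0.92, 0.77, 0.73, 0.73 and 0.78, with adjusted permutation p of at most 0.00345. The genes of a pair come from the same libraries and share their depth and total leukocyte content. The permutations treat clones that share a number as separate, and whether such clones are independent is not known.

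**Figure D5:**
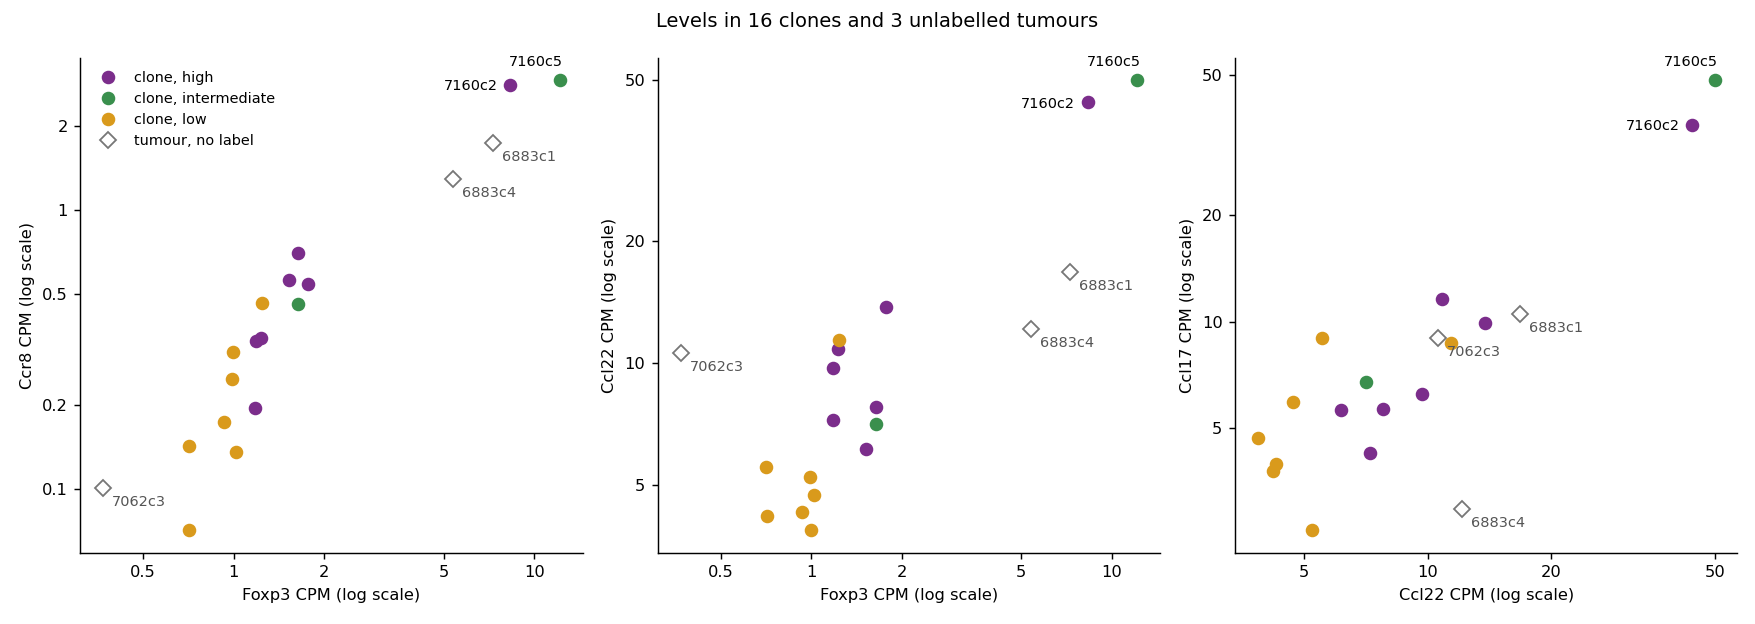
Clone levels of Ccr8 and Ccl22 against Foxp3 and of Ccl17 against Ccl22, in CPM on log scales, for the 16 labelled clones and for the 3 tumours with no phenotype as open diamonds. Over the 14 clones outside bulk_7160, r is 0.90, 0.66 and 0.70, and the 2 tumours of bulk_6883 have Foxp3 at 7.29 and 5.37 CPM with Ccl22 at 16.8 and 12.1 CPM.

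Of 12964 genes at a mean of at least 1 CPM in those 13 clones, Irf4 was the most like Foxp3, with a Spearman rho of 0.93, followed by Il2ra (0.86), Clcn1 (0.86), Ctla4 (0.86) and the pseudogene Oaz1-ps (0.85). Over all libraries of the 14 clones rho stayed high for Ctla4 (0.82) and Il2ra (0.75), was 0.52 for Irf4, and was -0.06 for Clcn1 and 0.00 for Oaz1-ps. Ctla4 encodes an inhibitory receptor that regulatory T cells carry constitutively, and Irf4 a transcription factor of activated lymphocytes and dendritic cells. With Foxp3, Ikzf2 had a rho of -0.16, Tnfrsf18 0.25 and Ccl17 0.25 over the 13 clones, and over all libraries of the 14 clones these were 0.28, 0.07 and 0.48. For Ccl22 the most alike genes were Ccr7 (0.91), the homing receptor of mature dendritic cells, Casp8 (0.88), Ctla4 (0.88), Hes1 (0.88) and Dcstamp (0.85), and Foxp3 itself ranked 16th, at 0.77. Over all libraries of the 14 clones rho was 0.86 for Ccr7, 0.46 for Casp8, 0.80 for Ctla4, 0.53 for Hes1, 0.64 for Dcstamp and 0.74 for Foxp3. These values are descriptions, with genes picked from many over the 13 clones and no test.

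Of 19 further regulatory T cell genes, 18 were tested, none was called and 14 lay higher in the high clones, with a median log2 difference of 0.30 against 0 over all genes. Lrrc32, which presents latent TGF-beta, had a mean of 39.8 ± 9.69 CPM over high clones, against 24.9 ± 6.15 CPM over low ones (SD, n = 7 each), a difference of 0.67 (SE 0.22), which was 0.57 without the bulk_7160 clones and 0.58 in libraries without the transcripts. Klrg1 differed by 1.37 (SE 0.46) and Ctla4 by 1.09 (SE 0.41). Without both bulk_7160 clones 8 of the 18 lay higher, at a median of -0.01. Among 17 T cell genes 16 lay higher, at a median of 1.21, with Trbc2 (1.66), Cd3g (1.54) and Zap70 (1.05) first by p. The count was also 16 without bulk_7160, at 0.77, and 15 in libraries without the transcripts, at 0.72. These lists share the libraries of the members, and 0 of their genes were called.

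The Ccr8 ligands Ccl1 and Ccl8 passed no test. Ccl1 had a mean of 0.188 ± 0.228 CPM over high clones, against 0.0786 ± 0.0799 CPM over low ones (SD, n = 7 each), with bulk_6421c2 highest at 0.688 CPM and the bulk_7160 clones at 0.161 and 0.198 CPM. Ccl8 was at 36.5 and 62.5 CPM in bulk_7160c2 and bulk_7160c5, with bulk_6421c2 at 40.4 CPM and bulk_6422c5 at 37.8 CPM in the same range. Of 16 other ligands and receptors 15 were tested, 12 lay higher and 0 were called, at a median of 0.36, led by Ccl5 (1.44), Ccr6 (1.12) and Cxcr3 (1.05). Tnfsf18, the ligand of GITR, had a mean of 7.0 ± 6.39 CPM over high clones, against 1.80 ± 0.521 CPM over low ones, a log2 difference of 1.96 (SE 0.49, edgeR adjusted p = 0.659). That difference was 1.63 without the bulk_7160 clones and 2.04 without the liver and heart libraries, and the difference of its receptor Tnfrsf18 was 0.24. Il2rb, the IL-2 receptor beta chain, differed by 1.3 (SE 0.50) and the TGF-beta receptor Tgfbr1 by -0.52 (SE 0.20), and Il2 itself stayed under 0.1 CPM in every clone and was not tested. Of the 15 partners tested 11 lay higher and 0 were called, at a median of 0.12. The count was 9 of 15, at 0.07, without the bulk_7160 clones and 6 of 15, at -0.05, in libraries without the transcripts.

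Mature dendritic cells are a known source of Ccl22 and Ccl17, and 12 of 14 of their genes lay higher, at a median of 0.30, with Ccr7 (0.78), Il4i1 (0.68) and Cd40 (0.59) first by p. Of 8 genes of type 2 conventional dendritic cells 8 lay higher, at 0.40, led by Irf4 (0.76), Mgl2 (0.60) and Clec10a (0.35), and of 12 macrophage and monocyte genes 11, at 0.37, with C1qb (0.47) and Lyz2 (0.54) first by p. B cell genes were at 0.06, with Cd79b (0.64), Fcer2a (0.55) and Cd79a (0.29) first, and tumour epithelium genes at 0.04, led by Epcam (2.12), Krt7 (0.46) and Krt8 (-0.23). NK cell genes were at 0.45, led by Eomes (-1.54), Klrb1c (0.70) and Klrk1 (0.53). None of these lists had a called gene. Without both bulk_7160 clones 10 of 14 mature dendritic cell genes lay higher, at a median of 0.10, and the median was 0.15 for type 2 dendritic cell genes, 0.20 for macrophage and monocyte genes and 0.18 for NK cell genes. In libraries without the transcripts the medians were 0.25, 0.45, 0.12 and -0.33, the last over 4 NK cell genes tested. Klra4, of a family with near-identical copies, made up 89.5% of the NK sum, and the rest of that list was at 5.30 and 8.02 CPM in bulk_7160c2 and bulk_7160c5, against 1.29 to 9.63 CPM in the other clones. The liver and heart list was at -0.18, with Alb (-0.18), Myh6 (-0.18) and Myh7 (-0.17). In libraries without the transcripts Alb, the 1 gene of that list tested there, differed by -4.35 (SE 1.75).

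Clones that share a number allow a closer look at single pairs, with no test since each side is 1 clone. High clone bulk_6499c4 exceeded low clone bulk_6499c3 in 7 of 10 members, with Foxp3 at 1.64 against 0.990 CPM, Ccr8 at 0.698 against 0.248 CPM and Ccl22 at 7.75 against 5.22 CPM. The pair went the other way for Il10, at 0.189 against 0.644 CPM. High clone bulk_6556c4 exceeded low clone bulk_6556c3 in all 10, with Foxp3 at 1.23 against 0.929 CPM, Ccr8 at 0.346 against 0.173 CPM, Ccl22 at 10.8 against 4.27 CPM and Ccl17 at 11.6 against 3.97 CPM. Counted in libraries of the class without liver and heart transcripts, the members higher in the high clone were 8 and 9 of 10. Foxp3 then was lower in bulk_6556c4, at 0.991 against 1.1 CPM. In bulk_7160, where the clones carry the labels intermediate and high, the intermediate clone bulk_7160c5 exceeded the high clone bulk_7160c2 in all 10 members. Ptprc was higher there too, at 150 against 54.2 CPM. Of the gene lists, only the tumour epithelium sum and the liver and heart sum were lower in bulk_7160c5. The share of all genes that went the same way was not counted for any of these pairs, so the counts say nothing particular about the members.

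Of the 3 tumours with no phenotype, bulk_6883c1_no1 and bulk_6883c4_no1 had high levels of several receptor genes. Foxp3 was at 7.29 and 5.37 CPM there, Il2ra at 9.59 and 5.67 CPM, Ccr8 at 1.74 and 1.29 CPM and Ccr4 at 1.25 and 1.46 CPM. Foxp3, Il2ra and Ccr4 were above every labelled tumour outside bulk_7160, and Ccr8 was in bulk_6883c1_no1 alone. Ccl22, at 16.8 and 12.1 CPM, and Ccl17, at 10.5 and 2.96 CPM, stayed below every bulk_7160 tumour. The tumour bulk_7062c3_no2 had the lowest Foxp3 and Cd4 of all 37, at 0.368 and 0.568 CPM, with Ccl22 at 10.6 CPM and Ccl17 at 8.99 CPM. Their group is not given, so no comparison was made.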

How the data were processed

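The table the authors deposited gives raw counts for each gene in 37 libraries of 1 tumour each, whole numbers whose totals differ. Per the submitters' processing notes, STAR, featureCounts and mm10 were used, and the sources used here give no versions, annotation, strand setting or handling of ambiguous reads. RNA extraction with Qiagen columns, an input of 500 ng and sequencing on an Illumina NextSeq are given by the labels' protocols. The 10 members and the 12 gene lists, the library class rule (over 10 CPM) and the tests were chosen with earlier results of these data known, and no list gives independent support. Of 39017 identifiers, 37607 were found in GENCODE M21 (GRCm38).

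Counts of tumours of a clone were summed and tested with edgeR 4.0.16 (R 4.3.3) by the two-sided quasi-likelihood test, with TMM scaling, the default expression filter and 1 coefficient per phenotype over 16 clones. Benjamini-Hochberg adjustment ran over all genes, with a threshold of 0.05. Standard errors are approximate, the difference divided by the square root of F. Library classes were compared on tumour counts with clone as a covariate. Levels are CPM with TMM scaling. Ratios use a prior of 0.1 CPM and exact permutation tests (SciPy 1.17.1) over clones, adjusted over the 4 ratios, and relations over clones use 100000 permutations. Nothing says that tumours of a clone came from separate cultures, so p-values measure the spread between these clones only. All tests over clones treat clones that share a number as independent, which the sources used here do not establish. Alternatives used DESeq2 1.42.0, with its default handling of outlier counts, and limma 3.58.1. The edgeR steps were tested on simulated counts with known changes and the same fixed spread for all genes. That checks the steps and does not give the power in these clones. Depth set by the total counts limits Ccr8, Ccr4 and Il10 most, and any interval covers counting error only.

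Genes named outside the members are up to 3 per list with the smallest unadjusted p between high and low clones, with Ccl1, Ccl8, Il2 and Tnfsf18, and the 5 most like Foxp3 and Ccl22 over clones, leaving out predicted genes. A gene that this rule names is not reported here.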

Additional observations from a re-analysis of the deposited data

Results flagged for a closer look

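In 20 groups of 7 clones, a clone stood far from its nearest neighbour relative to the range of the group in 9 cases. The cut, a Dixon ratio of 0.568, flags about 1 in 20 groups by chance only if values are normally distributed. Whether the CPM values are was not tested. These genes also share libraries and bulk_7160 was set apart with its levels known, so the count is a description and not a test. The high clone bulk_7160c2 was the highest of its group by a wide gap in 7 of the 9 cases. It had Foxp3 at 8.33 CPM, Il2ra at 5.79 CPM, Ccr8 at 2.81 CPM, Ccr4 at 1.15 CPM, Ccl22 at 44.1 CPM, Ccl17 at 36.1 CPM and Cd4 at 12.5 CPM. Among high clones in libraries without the liver and heart transcripts, it led narrowly for Foxp3, Il2ra and Cd4. The values were 2.43, 2.93 and 5.45 CPM against 2.04, 2.87 and 5.11 CPM in bulk_2838c3. Ccr4, at 0.339 CPM, was below bulk_6499c4 at 0.547 CPM, and Ccr8 was at 1.14 against 0.869 CPM there. Ccl22 was at 32.5 against 19.8 CPM in bulk_2838c3, and Ccl17 at 39.2 against 16.4 CPM in bulk_6556c4. Among low clones bulk_6419c1 was far above the others for Ikzf2, at 21.9 CPM, and bulk_2669c4 for Ccl22, at 11.4 CPM.

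The tumours with no phenotype carried signals that no comparison uses, above the highest low tumour. In bulk_6883c1_no1 they were Foxp3 at 7.29 CPM, Il2ra at 9.59 CPM, Ccr8 at 1.74 CPM, Ccr4 at 1.25 CPM, Tnfrsf18 at 7.0 CPM, Il10 at 0.832 CPM and Cd4 at 9.03 CPM. In bulk_6883c4_no1 they were Foxp3 at 5.37 CPM, Il2ra at 5.67 CPM, Ccr8 at 1.29 CPM, Ccr4 at 1.46 CPM, Tnfrsf18 at 5.34 CPM and Cd4 at 13.9 CPM. The library of bulk_6883c1_no1 was the deepest of all, at 161.73 M counts.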

How the results depend on the processing

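Between high and low clones 0 genes were called under 27 of 28 alternatives, every left-out clone included, and DESeq2 called 27. No member was called in any of these, so the side of the threshold was the same throughout. Of 280 member values 277 did not reverse, a value of 0.00 counted among them. Sizes moved more: without both bulk_7160 clones Foxp3 went from 1.35 to 0.57, Ccl17 from 1.04 to 0.37 and Tnfrsf18 from 0.24 to 0.00. Ikzf2 turned to -0.21 in libraries with liver and heart transcripts, and Il10 to -0.18 in those without and to -0.14 there without both bulk_7160 clones. Between intermediate and low clones DESeq2 called 929 genes, limma voom on tumours 130, the same with the tumour number as a replicate block 69, edgeR 2 in libraries without the transcripts and without both bulk_7160 clones, and 0 to 567 with a clone left out. In those libraries without bulk_7160, where bulk_6422c5_no2 is the sole intermediate library, Il2ra was at -0.45, Ikzf2 at -0.04, Ccl22 at -0.02, Tnfrsf18 at -0.84, Il10 at -1.38 and Cd4 at -0.23. Il10 was at -0.54 in libraries without the transcripts and both clones. The cause was not tested. With the block, 3 members were called (Foxp3, Il2ra and Cd4), as without it, and 0 genes between high and low clones. The labels do not say whether tumour numbers pair the tumours. Deviations from the phenotype means correlated at -0.62 to 0.87 between tumours with the same number, with a median of 0.38. Between tumours with different numbers the median was -0.39, so tumours with the same number were the more alike by median.

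Without the 4 nearly alike libraries Cd4 turned to 0.04 between library classes, against -0.18 with all. Ccr8 relative to Foxp3 reversed to -0.08 with a prior of 0.5 CPM and to -0.12 in libraries with the transcripts. With a clone left out the 4 ratios ranged from -0.49 to -0.17 for Foxp3 over the T cell receptor genes, 0.25 to 0.60 for Foxp3 over Cd4, 0.17 to 0.34 for Ccr8 over Foxp3 and 0.20 to 0.48 for Ccl22 over Ccl17, with adjusted p of at least 0.119 (exact permutation). The limma fit on clone means, the fits without the 4 nearly alike libraries and those with 2 restrictions were chosen after seeing the data. Depth limits Ccr8, Ccr4 and Il10, which rest on under 10 reads in 20, 24 and 19 of the 37 tumours.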
